A study of Rattus norvegicus with 20 samples.

Results

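Anxa7, Mk1 and Dipk2a were followed across the livers of 20 male rats, as 3 of the 32883 genes of the deposited table and 3 of the 11869 that passed a filter on low values. They were chosen by their measured values in these same libraries, namely for higher values when BGZ_L was added to hydrocortisone or for an interaction of the agents, so their differences in those contrasts are described here without a test. The control rats (CON) received the vehicle alone, 0.5% sodium carboxymethylcellulose. BGZ_L alone was given as a powder at 0.9 g/kg to the BGZ_L rats, an agent that the series title ties to the herbal drug Psoraleae Fructus. The KYDS rats received hydrocortisone at 25 mg/kg, a glucocorticoid given in excess to model the kidney-yang deficiency syndrome of Chinese medicine, and the KYDS+BGZ_L rats received both agents at those doses. Each group held 5 rats with 1 liver library each, and the labels used here give no age, strain or batch.

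Annexins are soluble proteins that bind acidic phospholipids of membranes when calcium rises, and they act in vesicle fusion, membrane repair and exocytosis. Anxa7 (ENSRNOG00000007136) encodes annexin A7, also called synexin, first known for bringing secretory granules of adrenal chromaffin cells together. Mk1 (ENSRNOG00000019657) encodes a small protein that the deposited table annotates with actin binding and actin filament assembly, a role it shares by annotation with the profilins. Dipk2a (ENSRNOG00000008519) encodes divergent protein kinase domain 2A, a member of a family of kinase-like proteins that enter the secretory pathway, and the table annotates it with the extracellular space, COPI vesicle coats and phosphatidylinositol 3-kinase signalling. Hydrocortisone acts through the glucocorticoid receptor, a transcription factor that binds DNA at pairs of short motifs.

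All 3 genes had an entry in the RefSeq promoter table (build GRCr8), and the 250 bases before each start are shown because the genes are compared below for their response to a receptor that binds DNA. They lie at chr15:3870790-3871039 on the plus strand for Anxa7, chr16:18817294-18817543 on the minus strand for Mk1 and chr8:103969462-103969711 on the minus strand for Dipk2a. The Anxa7 window lies inside the annotated span of the gene, since other transcripts of it start farther upstream. Sequences run 5′ to 3′ toward the gene, and capitals mark every match, on either strand, to the 6-letter glucocorticoid receptor motif AGAACA, the xenobiotic response element core GCGTG, the E-box CACGTG, the antioxidant response element core TGACNNNGC or the AP-1 site TGANTCA. No match of one motif overlapped a match of another.
Anxa7: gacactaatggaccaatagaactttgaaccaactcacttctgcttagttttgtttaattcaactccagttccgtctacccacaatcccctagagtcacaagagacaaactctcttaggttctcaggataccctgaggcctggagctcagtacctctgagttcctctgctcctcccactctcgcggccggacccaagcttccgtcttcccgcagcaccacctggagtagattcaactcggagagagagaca
Mk1: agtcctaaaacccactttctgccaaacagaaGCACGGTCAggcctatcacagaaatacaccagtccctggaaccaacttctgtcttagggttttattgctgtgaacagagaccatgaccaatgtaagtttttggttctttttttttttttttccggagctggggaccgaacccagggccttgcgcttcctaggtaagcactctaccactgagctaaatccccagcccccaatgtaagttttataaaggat
Dipk2a: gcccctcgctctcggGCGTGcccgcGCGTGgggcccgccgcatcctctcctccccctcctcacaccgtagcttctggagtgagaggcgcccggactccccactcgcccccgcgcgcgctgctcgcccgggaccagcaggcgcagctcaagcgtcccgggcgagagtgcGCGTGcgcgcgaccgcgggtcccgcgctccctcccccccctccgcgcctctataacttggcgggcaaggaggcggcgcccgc

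The Anxa7 window held none of the 5 motifs. The Mk1 window held 1 antioxidant response element core, which begins 219 bases before the start and which 10.1% of 33469 rat promoter windows of the same length also hold. The Dipk2a window held 3 xenobiotic response element cores, which begin 235, 225 and 82 bases before the start, and 25.9% of the windows hold at least 1. AGAACA, the E-box and the AP-1 site were in none of the 3 windows, against 17.5%, 5.59% and 6.34% of all windows. These matches describe letters in a short window, and a window without one says nothing of the factor that binds such letters.

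The 3 windows differed in composition. Dipk2a had a CpG-rich window, with 77.2% G or C, above 97.8% of all windows, and a CpG observed-to-expected ratio of 1.03. Anxa7 had 50.8% G or C and a ratio of 0.47, and Mk1 had 45.6% and 0.31, beside medians over all windows of 51.2% and 0.38. Part of the Mk1 window is repeated elsewhere: it shared a run of 20 bases with the windows of 248 other genes, and 88 of its bases lay in runs that at least 10 other windows hold. No other window shared such a run with that of Anxa7, and 2 did with that of Dipk2a.

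Levels are given as scaled TPM, the deposited value divided by a factor per library that sets the bulk of genes level. The deposited values were read as TPM, a relative transcript abundance corrected for length. That reading was judged from the values alone, and measures that compare different genes rest on it. One ground for scaling was that 13 mitochondrially encoded genes took between 19.2% and 90.1% of the deposited TPM of a library. The factors did not simply follow that share, since BGZ_L 1 had 39.6% and a factor of 0.484, and KYDS 4 had 68.9% and 1.31. That mitochondrial share was 75.1% ± 10.2 in CON, 67.3% ± 17.3 in BGZ_L, 42.4% ± 18.0 in KYDS and 48.9% ± 17.7 in KYDS+BGZ_L (SD, n = 5 each), so it differs along the hydrocortisone comparison. Deposited TPM summed to between 914343 and 983962 per library, and the read depth behind them is unknown. Hepatocyte markers were present in every library, as the liver label requires, and 7 of 8 rose with hydrocortisone. The part of the mitochondrial share and of the cell make-up in the results below was not tested, and in whole tissue fewer cells of a type and less RNA per cell cannot be told apart.

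Anxa7 was highest where both agents were given, and its scaled level in KYDS was near that in CON. In libraries 1 to 5 of CON, scaled TPM of Anxa7 was 2.80, 3.11, 3.86, 2.32 and 1.25. In BGZ_L it was 4.34, 4.10, 4.05, 2.25 and 5.40, and in KYDS it was 2.01, 1.80, 2.81, 2.52 and 3.03. In KYDS+BGZ_L it was 10.3, 6.26, 7.44, 10.5 and 7.93. Every KYDS+BGZ_L library lay above every other library of the study, while the other 3 groups overlapped one another. The share of all tested genes whose groups separate in this way was not computed. These values chose the gene, so the separation is given as a description.

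The order of the Anxa7 means was KYDS at 2.43 ± 0.52, CON at 2.67 ± 0.97, BGZ_L at 4.03 ± 1.14 and KYDS+BGZ_L at 8.48 ± 1.84 scaled TPM (SD, n = 5 each). KYDS and CON did not differ beyond their spread, and 4 of 5 BGZ_L libraries lay above all of CON. In deposited TPM, before any scaling, KYDS ran from 3.31 to 5.46 and KYDS+BGZ_L from 6.39 to 18.4, which again do not overlap. The relation of KYDS to CON is another matter, because it turned with the scale: mean Anxa7 in KYDS was 0.912 times that in CON after scaling and 2.04 times without it.

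The Mk1 mean was lowest in CON, then BGZ_L, then KYDS, and highest in KYDS+BGZ_L. In libraries 1 to 5, scaled TPM of Mk1 was 1.03, 0.821, 0.723, 1.41 and 1.40 in CON and 1.78, 1.44, 1.30, 1.72 and 2.56 in BGZ_L. In KYDS it was 4.22, 2.90, 3.92, 1.93 and 3.19, and in KYDS+BGZ_L it was 10.8, 7.63, 7.51, 12.6 and 6.998. No KYDS+BGZ_L library fell as low as any other library. KYDS lay wholly above CON, and BGZ_L overlapped CON below it and KYDS above it. As for Anxa7, this is a description, and the share of tested genes that separate so was not computed.

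The Mk1 means were 1.08 ± 0.32 in CON, 1.76 ± 0.49 in BGZ_L, 3.23 ± 0.90 in KYDS and 9.12 ± 2.48 in KYDS+BGZ_L (SD, n = 5 each, scaled TPM). In deposited TPM the separation of the last 2 groups was not complete, with a highest KYDS library of 7.29 and a lowest KYDS+BGZ_L library of 7.23. Among the 11869 tested genes Mk1 moved from a low place to a high one, with a mean above 22.8% of them in CON and above 79.4% in KYDS+BGZ_L.

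Unlike for Anxa7 and Mk1, BGZ_L went with lower values of Dipk2a in rats without hydrocortisone and with higher values in rats given hydrocortisone. In libraries 1 to 5, scaled TPM of Dipk2a was 0.804, 0.778, 0.694, 0.491 and 0.836 in CON and 0.145, 0.232, 0.116, 0.134 and 0.326 in BGZ_L. In KYDS it was 3.22, 1.08, 2.06, 1.40 and 1.40, and in KYDS+BGZ_L it was 4.29, 3.07, 3.53, 5.26 and 4.08. All 5 BGZ_L libraries lay below all of CON, and all of KYDS lay above CON. The KYDS and KYDS+BGZ_L groups overlapped through 1 library, KYDS 1, and 4 of 5 KYDS+BGZ_L libraries lay above all of KYDS. For Dipk2a too, the share of tested genes that separate so was not computed.

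The Dipk2a means were 0.191 ± 0.088 in BGZ_L, 0.720 ± 0.139 in CON, 1.84 ± 0.85 in KYDS and 4.05 ± 0.83 in KYDS+BGZ_L (SD, n = 5 each, scaled TPM). The BGZ_L mean is low for this table, above only 1.03% of tested genes, and Dipk2a reached the filter level of 0.5 scaled TPM in 14 of 20 libraries, whereas Anxa7 and Mk1 reached it in all 20. The number of reads behind values this low is not known, and without scaling the CON and BGZ_L libraries overlapped, with means of 0.530 and 0.156 deposited TPM.

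**Figure D1:**
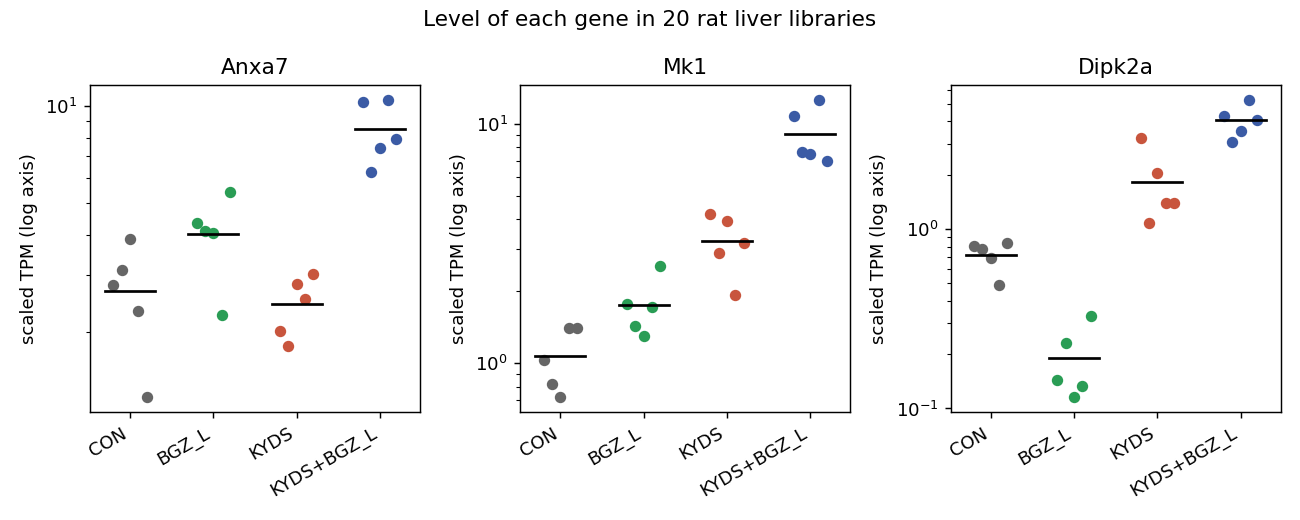
Scaled TPM (log axis) of Anxa7, Mk1 and Dipk2a in the 4 groups of rat liver libraries; points are the 5 libraries of a group and black lines are group means. KYDS+BGZ_L has the highest mean for each gene, 8.48, 9.12 and 4.05, while the BGZ_L group is the lowest for Dipk2a alone of the 3.

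The effect of hydrocortisone averaged over rats without and with BGZ_L was tested, because with equal groups its estimate is orthogonal to the 2 contrasts that chose these genes, though all of them share 1 estimate of spread. It was fitted on log2(scaled TPM + 0.5), a scale that understates changes of low genes, in limma over all tested genes with Benjamini-Hochberg adjustment. Dipk2a rose by 1.79 ± 0.15 (log2 difference ± SE, adjusted p = 5.4e-07) and Mk1 rose by 1.65 ± 0.16 (adjusted p = 2.7e-06). As a description, all 10 libraries with hydrocortisone lay above all without it for Dipk2a, 9 of 10 did for Mk1 and 5 of 10 for Anxa7. In deposited TPM these counts were 10, 10 and 7. The 5 Anxa7 libraries are those of KYDS+BGZ_L, a group whose values chose the genes. The share of all tested genes that separate in this way was not computed, so the counts add nothing to the test. Anxa7 differed by 0.47 ± 0.18, which did not pass (adjusted p = 0.0526), and its 95% interval ran from 0.09 to 0.84. In this contrast 31.2% of all tested genes passed, 17.1% upward and 14.1% downward. Dipk2a reached the filter level in 10 of 10 libraries with hydrocortisone and in 4 of 10 without it, so it entered the test only through the groups where it is high. With no filter its difference was 1.79 as well (adjusted p = 1.9e-06).

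The outcome for Anxa7 hangs on the scale: without scaling the difference was 1.39 (adjusted p = 0.00073), where the median over all genes moved to 0.82 from 0.05. When the balance of nuclear against mitochondrial RNA in each library (a log2 ratio) entered the model as a covariate, 198 genes passed. Mk1 still differed by 1.33 (adjusted p = 0.0008) and Dipk2a by 1.69 (adjusted p = 0.00014), while Anxa7 was at 0.44 (adjusted p = 0.401).

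Split by arm, the hydrocortisone difference of each gene was larger in rats given BGZ_L. For Anxa7 it was -0.07 without BGZ_L and 1.01 with it on the log2 scale. For Mk1 it was 1.23 and 2.08, and for Dipk2a it was 0.88 and 2.71. The gap between the arms is the interaction that chose Dipk2a, so these pairs are given as a description.

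In the contrasts that chose the genes, KYDS+BGZ_L exceeded KYDS by 1.61 ± 0.25 for Anxa7, 1.37 ± 0.23 for Mk1 and 1.01 ± 0.22 for Dipk2a (log2 difference ± SE). Of 11869 tested genes 15 passed there, 0.126%, of which 7 were higher, 0.059%, and Anxa7 and Mk1 are 2 of these 7 while Dipk2a is not among them. The other 5 higher genes were the quinone reductase Nqo1, the cytochromes P450 Cyp1a1 and Cyp1a2, biliverdin reductase Blvrb and AABR07008940.1. Without scaling 0 genes were higher there, so neither Anxa7 nor Mk1 passed on that scale, and leaving out 1 library kept Anxa7 in 20 of 20 fits and Mk1 in 17. The interaction was 1.07 ± 0.36 for Anxa7, 0.85 ± 0.33 for Mk1 and 1.83 ± 0.31 for Dipk2a. It passed for 3 genes, 0.0253%, and Dipk2a was the 1 with a positive sign, 0.00843%, beside the clock genes Dbp and Nr1d1 with negative ones. Dipk2a kept that place in 6 of 20 fits that left out 1 library. The fits with 1 library left out reuse the values that chose the genes, so these counts describe the choice and add no support.

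BGZ_L given alone went with differences from CON of 0.53 ± 0.25 for Anxa7, 0.52 ± 0.23 for Mk1 and -0.82 ± 0.22 for Dipk2a (log2 difference ± SE). None of the 11869 genes passed in this comparison in limma, 0%, although 714 had an unadjusted p under 0.05. The sign for Dipk2a is thus opposite to its sign when BGZ_L was added to hydrocortisone, and the signs for Anxa7 and Mk1 are alike in both settings. These comparisons share libraries with the interaction and are set side by side only.

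**Figure D2:**
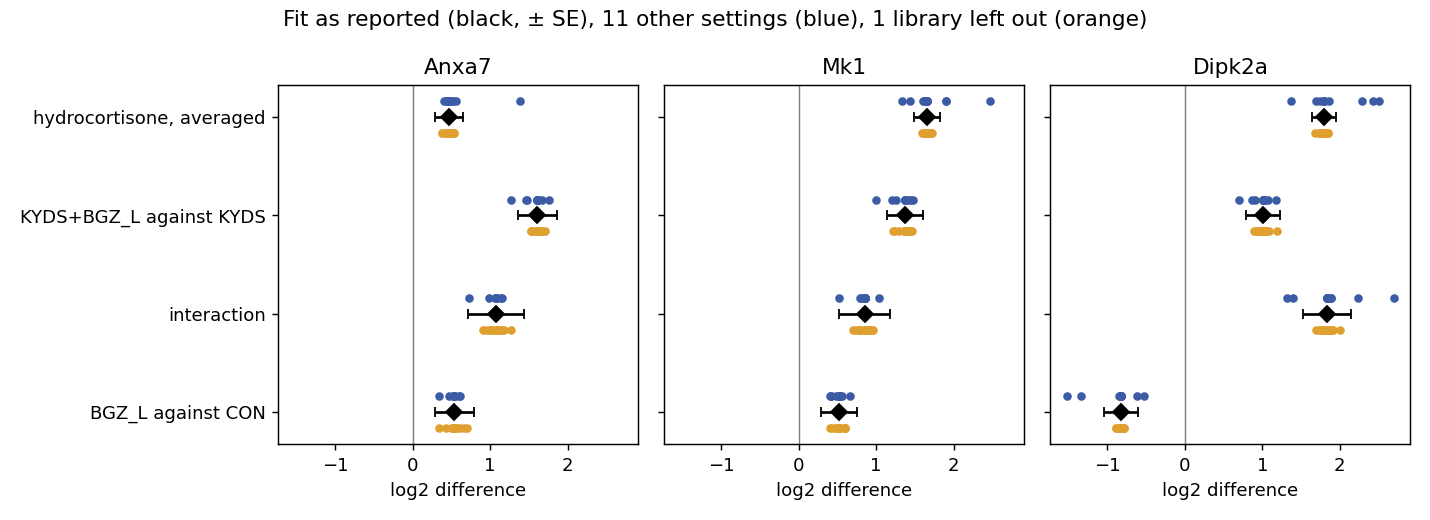
Log2 differences of the 3 genes in the 4 contrasts; black diamonds are the values as reported with their SE, blue points 11 other settings and orange points fits that leave out 1 library. Every point keeps the sign of the reported value, and the unscaled fit gives the far blue point of 1.39 for Anxa7 under hydrocortisone.

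The other annexins were read beside Anxa7. The deposited data list 11 other annexins, 8 of which were tested, and with hydrocortisone 0 were higher, 3 were lower and 5 did not pass, with a median of -0.30 beside 0.05 over all genes, where 17.1% were higher and 14.1% lower. Anxa1, a glucocorticoid-associated annexin of inflammation, fell by 1.20 ± 0.24 (adjusted p = 0.0013). In limma Anxa1 did not pass without scaling (-0.25, adjusted p = 0.537) or with the covariate for mitochondrial content (-0.80, adjusted p = 0.178). Anxa2, which pairs with S100a10 at the plasma membrane, differed by -0.84 ± 0.16 (adjusted p = 0.00094), and Anxa5, the phosphatidylserine binder used to stain dying cells, by -0.97 ± 0.19 (adjusted p = 0.001). Both signs depend on the scale, since without scaling these differences were 0.17 for Anxa2 and 0.0175 for Anxa5, under the all-gene median of 0.82 in that fit.

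When BGZ_L was added to hydrocortisone, 0 of these 8 annexins passed in limma and 1 had an unadjusted p under 0.05. Their differences ran from -0.08 to 0.54 with a median of 0.25, beside 1.61 for Anxa7. Anxa6, a large annexin of endosomes and the plasma membrane, had the 0.54, and Anxa11, which like annexin A7 has a long N-terminal tail, had 0.12 ± 0.22. Mean Anxa11 stayed between 4.99 and 5.64 scaled TPM in all 4 groups. Anxa4 had 0.26 ± 0.28. In the interaction and in BGZ_L against CON, 0 of the 8 passed in limma, and 0 had an unadjusted p under 0.05.

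A share within the family needs no scaling between libraries. Anxa7 made up 5.27% ± 0.95 of the summed deposited TPM of 12 annexins in CON, 8.09% ± 2.94 in BGZ_L, 7.70% ± 0.97 in KYDS and 18.8% ± 2.51 in KYDS+BGZ_L (SD, n = 5 each). The lowest KYDS+BGZ_L share was 15.8% and the highest share in any other group 12.2%, so these did not overlap. A share of this kind rises with Anxa7 and falls with the other annexins alike.

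Among 10 partners of annexins, a list that holds S100 proteins, calcium sensors, a galectin and ESCRT-associated proteins, 0 were higher with hydrocortisone and 2 were lower, beside 14.1% of all tested genes. Sri, which encodes sorcin, a calcium sensor that binds annexin A7, differed by -0.69 ± 0.23 (adjusted p = 0.0318), and S100a10 by -0.58 ± 0.20 (adjusted p = 0.0344). With 1 library left out, Sri passed in 14 of 20 fits and S100a10 in 11. Without scaling, which moves the all-gene median to 0.82, they were at 0.30 and 0.48, positive but under that median. In a list of 19 genes of membrane repair and fusion, 15 were tested, 0 were higher and 4 were lower, beside the same 14.1%: Dysf, Myof, Ehd2 and Chmp2a, at -0.40, -0.65, -0.58 and -0.85. With 1 library left out, these 4 passed in 12, 11, 18 and 20 of 20 fits. Dysf and Chmp2a, of the dysferlin patch and of the ESCRT-III scission complex, were at 0.14 and 0.24 without scaling, also under that median. In the 3 contrasts with BGZ_L 0 genes of either list passed in limma, and 1 had an unadjusted p under 0.05, in BGZ_L against CON.

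A list of kinases, kinase-like proteins and glycosyltransferases of the secretory pathway was read beside Dipk2a. The deposited data list 13 others, 10 of which were tested, and 7 rose, 1 fell and 2 did not pass, with a median of 0.51 beside 0.05 over all genes, where 17.1% were higher and 14.1% lower. Fam20c, the kinase that phosphorylates secreted proteins, rose by 1.12 ± 0.32 (adjusted p = 0.0129), and Dipk1a by 0.95 ± 0.24 (adjusted p = 0.0069). Pomk, a kinase of the dystroglycan sugar chain, and Poglut1, a glucosyltransferase of Notch, rose by 0.45 ± 0.14 and 0.54 ± 0.17 (adjusted p = 0.0184 for each). The rest of the 7 were Pkdcc at 0.72, Fam20a at 0.60 and Fam20b at 0.48, and Gask1a fell by 1.62 ± 0.56 (adjusted p = 0.0333). With the covariate for mitochondrial content, which also widens the SE, 0 genes of these 4 lists passed in limma; Fam20c was then at 0.78 ± 0.42 and Dipk1a at 0.72 ± 0.32, and the SE of Anxa7 went from 0.18 to 0.24.

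When BGZ_L was added to hydrocortisone, 0 of the 10 passed in limma, 0 had an unadjusted p under 0.05, and their differences ran from -0.64 to 0.06. In the interaction and in BGZ_L against CON 0 passed in limma, with 1 and 2 at an unadjusted p under 0.05. Gask1a had an interaction of -3.24 ± 1.12 (adjusted p = 0.999) and a difference of 2.61 ± 0.79 between BGZ_L and CON (adjusted p = 0.524). Dipk1b, a close relative, had -0.01 ± 0.18 with hydrocortisone and -0.58 ± 0.25 between BGZ_L and CON (adjusted p = 0.784), the latter the same sign as Dipk2a. Dipk2b, the nearest one by name, stayed at or under 0.174 scaled TPM and was not tested. Dipk2a made up 21.6% ± 11.3 of the summed deposited TPM of the 5 Dipk genes in CON, 8.98% ± 5.12 in BGZ_L, 24.3% ± 6.83 in KYDS and 49.6% ± 7.75 in KYDS+BGZ_L (SD, n = 5 each). The lowest share with both agents, 42.3%, lay above the highest elsewhere, 38.7%, although Dipk2a itself overlapped between KYDS and KYDS+BGZ_L in scaled and in deposited TPM. Such a share rises with Dipk2a and falls with the other Dipk genes alike, and mean Dipk1a was lower in KYDS+BGZ_L than in KYDS. This share and that of Anxa7 reuse the KYDS+BGZ_L values that chose the genes, so both are given as a description.

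**Figure D3:**
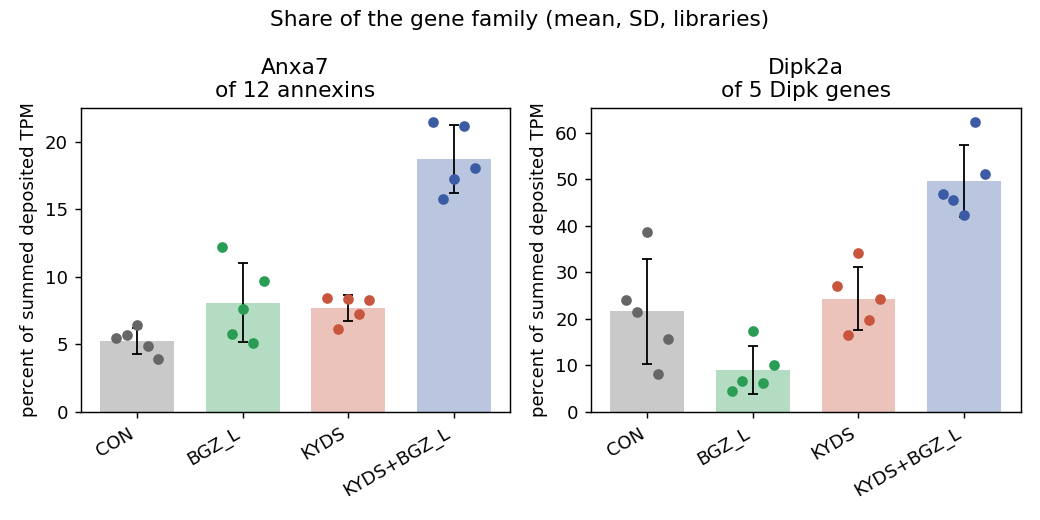
Share of the summed deposited TPM of 12 annexins taken by Anxa7 (left) and of 5 Dipk genes taken by Dipk2a (right), in percent; bars are means, error bars SD and points the 5 libraries of a group. The KYDS+BGZ_L libraries start at 15.8% and 42.3% and lie above all others in both panels.

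**Figure D4:**
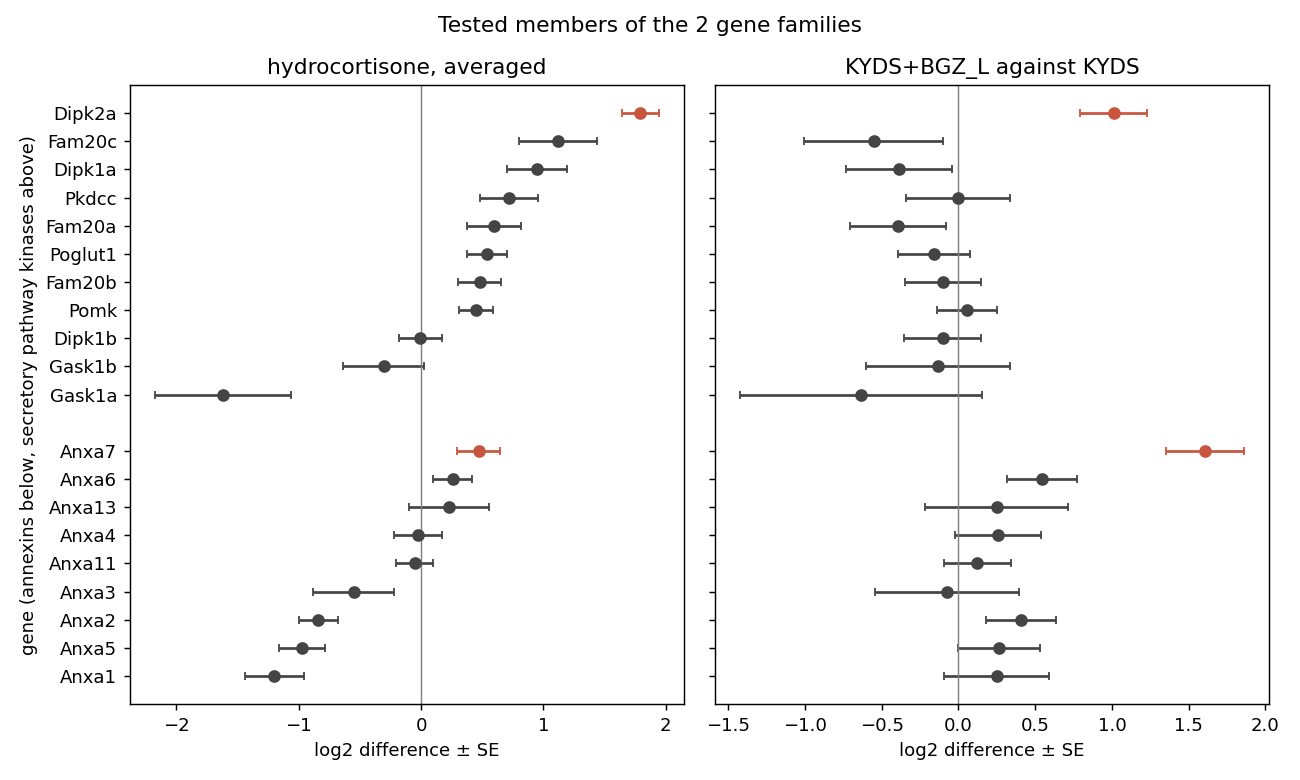
Log2 difference ± SE of each tested annexin (lower block) and secretory pathway kinase (upper block) with hydrocortisone (left) and with BGZ_L added to hydrocortisone (right); Anxa7 and Dipk2a are in red. On the right the next annexin after Anxa7 is Anxa6 at 0.54, and every other kinase lies at or under 0.06.

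Mk1 overlaps Pgpep1, a peptidase gene, in the RefSeq annotation, and the strand used in counting is not given in the sources used here, so reads from the shared stretch cannot be told apart. Pgpep1 had 1.38, 2.16, 1.89 and 3.62 scaled TPM on average in CON, BGZ_L, KYDS and KYDS+BGZ_L. It rose with hydrocortisone by 0.50 (adjusted p = 0.0273) and differed by 0.75 when BGZ_L was added (adjusted p = 0.551). Mk1 was 89.0% ± 42.1 of Pgpep1 in CON and 86.5% ± 31.7 in BGZ_L, then 181% ± 75.2 in KYDS and 264% ± 73.2 in KYDS+BGZ_L, in deposited TPM (SD, n = 5 each). The groups overlapped in this ratio, with 278% as the highest KYDS library and 158% as the lowest KYDS+BGZ_L library.

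Pfn1, profilin 1, the abundant actin-monomer binder, was used as a second measure within libraries. Mk1 was 1.49% ± 0.99 of Pfn1 in CON, 1.73% ± 0.95 in BGZ_L, 5.25% ± 3.51 in KYDS and 8.80% ± 1.00 in KYDS+BGZ_L (deposited TPM, SD, n = 5 each). One KYDS library reached 10.8%, above all with both agents, so on this ratio the last 2 groups overlapped.

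The neighbouring genes were read in the same fit. Mss51 and Cfap70 flank Anxa7, and Mss51 fell by 1.80 with hydrocortisone (adjusted p = 0.00031) while Cfap70 differed by -0.25 (adjusted p = 0.538). A long non-coding RNA, LOC134482077, overlaps Anxa7 in RefSeq and is not listed by that name in the deposited data. The limit on reads from a shared stretch, given for Mk1, thus holds for Anxa7 too. Gdf15, a stress-response cytokine next to Mk1, rose by 1.78 with hydrocortisone (adjusted p = 0.0045) but differed by 0.27 when BGZ_L was added. The genes flanking Dipk2a are long non-coding RNAs not analysed here. RefSeq lists 4 Anxa7 pseudogenes, none of them under those names in the table, so reads that fit both could have been counted for Anxa7 or dropped.

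Across the 20 libraries the genes went together to different degrees, as a description with no test, since all share the same groups, libraries and scaling. Pearson's r of log2 values was 0.85 for Mk1 and Dipk2a, 0.68 for Anxa7 and Mk1 and 0.50 for Anxa7 and Dipk2a. After each group's mean was taken off, r was 0.56, 0.01 and 0.21. Within groups, then, only the Mk1 and Dipk2a pair kept an r above 0.5. Libraries 1 and 4 of KYDS+BGZ_L were the highest of their group for all 3 genes, and they also had the lowest mitochondrial shares of that group, 26.6% and 35.1%, and the highest scaling factors, 1.79 and 1.42.

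The genes most like Anxa7 over the 20 libraries were Blvrb (r = 0.82), Hibch (0.81), Bmt2 (0.80), Gstm4 (0.80) and Cavin3 (0.79). Blvrb encodes biliverdin reductase B and Gstm4 a glutathione S-transferase, and their means with both agents were 82.0 and 434 scaled TPM against 35.7 and 186 in KYDS. Genes picked over all libraries share the group pattern by the picking, here and for Mk1 and Dipk2a. After each group's mean was taken off, r was 0.34 for Blvrb and 0.48 for Gstm4. Around the group means the most like were Ruvbl1 (0.81), Mettl1 (0.80), Zc3h7b (0.78), Herpud2 (0.77) and Nedd4 (0.77). None of the first 5 genes was among the second 5.

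For Mk1 the most like genes were Fdx1 (r = 0.90), Gfer (0.90), Vom2r37 (0.89), Aqp8 (0.89) and Dele1 (0.88). Fdx1 encodes ferredoxin 1, an electron donor to mitochondrial cytochromes P450, and averaged 13.4, 13.5, 18.0 and 43.0 scaled TPM in CON, BGZ_L, KYDS and KYDS+BGZ_L. Around the group means they were Cxadr (0.87), Tmem17 (0.87), Dele1 (0.86), Cyp2c23 (0.85) and Phf13 (0.84). Dele1, which relays mitochondrial stress to the cytosol, was in both sets for Mk1.

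For Dipk2a they were Pnrc1 (r = 0.96), Kynu (0.93), Fzd4 (0.90), F8a1 (0.90) and Insig2 (0.88). Pnrc1, a nuclear receptor coactivator, had means of 10.1, 6.72, 16.9 and 25.5 scaled TPM in CON, BGZ_L, KYDS and KYDS+BGZ_L. Kynu, kynureninase of tryptophan breakdown, had 6.63, 5.35, 20.1 and 34.6, and Insig2, a brake on sterol synthesis, had 3.45, 2.57, 13.8 and 28.8. These genes were picked for following Dipk2a over the same groups, so like group means were built in. After each group's mean was taken off, r was 0.67 for Pnrc1, 0.42 for Kynu and 0.31 for Insig2. Around the group means the most like were Zfp422 (0.78), Gbe1 (0.74), Id4 (0.70), Mospd2 (0.70) and Paqr9 (0.68).

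Markers of liver cell types were read in the same contrasts. The summed level of 8 hepatocyte markers ran from 5066 to 9062 scaled TPM in CON, 5138 to 5872 in BGZ_L, 6250 to 62580 in KYDS and 8814 to 44368 in KYDS+BGZ_L. Their median difference with hydrocortisone was 1.39, near those of Mk1 and Dipk2a, and 0.17 when BGZ_L was added, where 0 of 8 passed in limma and 1 had an unadjusted p under 0.05. With hydrocortisone 7 of 8 hepatocyte markers rose, beside 17.1% of all tested genes. For the other lists 1 of 8 Kupffer cell markers rose, 1 of 8 stellate cell markers rose (Pdgfrb), 2 of 5 lymphocyte and neutrophil markers rose and 1 fell, and 0 passed among 7 endothelial, 5 cholangiocyte and 6 erythroid markers (0, 1 and 1 at an unadjusted p under 0.05), beside 31.2% of all tested genes. No marker passed in any contrast with BGZ_L, and no list had a gene at 0 in all libraries. Their part in the levels of the 3 genes was not tested.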

How the data were processed

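Liver RNA of 20 rats was measured. Per the labels' protocols, Trizol extraction and DNase I treatment preceded TruSeq library preparation, and read 1 of each pair was analysed. The deposited values were read as TPM made by the authors, judged from values with decimals whose library sums are nearly equal. Those features do not show a correction for length. The aligner and counter are not named in the sources used here. The submitters' processing notes list the mouse builds GRCm38, mm10 and GRCm39, whereas the gene identifiers are of rat, so the build is not known. Because the deposited values are not counts, limma 3.58.1 (R 4.3.3) was run on log2(scaled TPM + 0.5).

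Scaling factors came from trimmed means of log ratios, cutting 30% of the ratios and 5% of the levels from either end. Genes with at least 0.5 scaled TPM in 5 libraries were tested, in 1 model of 4 group means with 16 residual degrees of freedom and a trended, robust prior, two-sided, with a threshold of 0.05 on adjusted p over all tested genes. P-values measure the spread between rats of 1 study. The script was tested on simulated data. No library was dropped and no value imputed. Alternatives were other constants, filters, scalings and priors, a replicate block, a covariate for mitochondrial share, and leaving out libraries. Figures used matplotlib 3.10.9.

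The 3 genes and all lists were chosen with earlier results of these data known. Named genes were the 3, passing members of the fixed lists (up to 6 per list and contrast), 8 close relatives, the 5 most correlated genes by each measure, and annotated neighbours; the passing genes of the rule's contrasts, Pgpep1 and Pfn1 were named after their values were seen.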

Additional observations from a re-analysis of the deposited data

Results flagged for a closer look

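The interaction of BGZ_L and hydrocortisone on Dipk2a was 1.83 ± 0.31 (log2 difference ± SE). It sets a BGZ_L difference of -0.82 in rats without hydrocortisone against 1.01 in rats with it. This contrast chose the gene, so the value supports nothing further. The -0.82 rests on low values, since 0 of 5 BGZ_L libraries reached the filter level for Dipk2a. Dipk2a was among the genes passing the interaction in 6 of 20 fits that each left out 1 library and in 5 of 11 other settings, so its place there is near the edge. Anxa7 stayed among those passing for BGZ_L added to hydrocortisone in 20 of these 20 fits, and Mk1 in 17, the exceptions being fits without KYDS 2, KYDS+BGZ_L 1 or KYDS+BGZ_L 4. Without scaling, and with TPM rescaled over nuclear genes, neither Anxa7 nor Mk1 was among them. That contrast chose both genes, so these counts describe the choice and support nothing further.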

How the results depend on the processing

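The passing hydrocortisone differences of Mk1 and Dipk2a kept their sign and side of the threshold in all 11 settings, from 1.33 to 2.46 and from 1.37 to 2.51 (log2), and in all 20 fits that each left out 1 library. The Anxa7 difference passed with a constant of 1 (0.43, adjusted p = 0.0436), a filter at 2 (0.47, adjusted p = 0.0474) and no scaling (1.39). It did not pass in the other 8 settings. With the covariate it was 0.44 (adjusted p = 0.401), with nuclear TPM 0.56 (adjusted p = 0.256) and with median-ratio scaling 0.41 (adjusted p = 0.0885). With 1 library left out it ran from 0.37 to 0.54, and 4 of 20 fits passed (adjusted p from 0.0285 to 0.101). The differences of Anxa7 and Mk1 when BGZ_L was added to hydrocortisone ran from 1.27 to 1.76 and from 1.00 to 1.48 over the 11 settings, and the interaction of Dipk2a from 1.32 to 2.70.

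Counts of genes passing depended on scaling. For hydrocortisone 3706 passed as reported, 7259 without scaling (6909 higher, 350 lower), 1899 with nuclear TPM (1164 higher, 735 lower) and 198 with the covariate. For KYDS+BGZ_L against KYDS the counts were 15, 4 without scaling, 6 with nuclear TPM and 6 to 19 with 1 library left out (6 without KYDS 2, KYDS+BGZ_L 1 or KYDS+BGZ_L 4, and 8 without KYDS+BGZ_L 3 or 5). For the interaction they were 3, 0 without scaling, 0 with nuclear TPM, 1 without CON 2 and BGZ_L 3, and 2 to 5 with 1 library left out (5 without CON 3, CON 4, BGZ_L 5 or KYDS 3). For BGZ_L against CON they were 0, 1 with the covariate, 1 without CON 2 and BGZ_L 3, and 0 to 3 with 1 library left out (3 without CON 5, 2 without BGZ_L 1, 1 without CON 3 or BGZ_L 5). Of the other genes of the 4 lists 17 passed with hydrocortisone (7 higher, 10 lower), 22 without scaling (22 higher, 0 lower), 11 without a filter, 11 with a filter at 2, 3 with nuclear TPM, 0 with the covariate, and 10 to 16 with 1 library left out (10 without KYDS+BGZ_L 1, 11 without CON 1 or KYDS+BGZ_L 4). Differences that turned without scaling were 0.17 for Anxa2, 0.0175 for Anxa5, 0.30 for Sri, 0.48 for S100a10, 0.14 for Dysf and 0.24 for Chmp2a; the cause was not tested.

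The labels used here do not say whether the replicate numbers pair the rats. Of 30 correlations between same-numbered libraries 7 were above 0.1, and they ran from -0.46 to 0.33. These were not compared with differently numbered libraries, so they do not settle the pairing. With a replicate block in limma, the hydrocortisone differences were 0.47 for Anxa7 (adjusted p = 0.0805), 1.65 for Mk1 and 1.79 for Dipk2a. TPM keep no depth, so the precision of the low Dipk2a values is not known.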
